A study of Homo sapiens with 6 samples.

Results

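The receptors and ligands of the EGFR family were taken here as 10 genes, of the 57820 genes in the deposited tables. They were taken by name, as known members of the family, with earlier results of these data known: 4 receptor genes (EGFR, ERBB2, ERBB3, ERBB4) and 6 ligand genes (HBEGF, AREG, EREG, TGFA, NRG1, BTC). Each name matched 1 gene, and all 10 had enough counts to be tested.

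The receptors of this family are tyrosine kinases of the cell surface that act in pairs once a ligand has bound. ERBB2 has no known soluble ligand and serves as a partner for the others, and ERBB3 has little kinase activity of its own. The ligands are made as membrane-bound precursors and are released by metalloproteases. AREG and TGFA bind EGFR, HBEGF, EREG and BTC bind EGFR and ERBB4, and NRG1 binds ERBB3 and ERBB4. Once paired, the receptors signal through RAS and ERK, PI3K and STAT proteins, in many epithelial and mesenchymal cells and in tumours.

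RNA was sequenced from untreated AID-DIvA cells, in 3 samples of WT and 3 of ARID1A-KO cells, with replicate numbers from 3 to 5. AID-DIvA is a derivative of the osteosarcoma line U2OS that carries the nuclease AsiSI in an inducible form, and the nuclease was not induced in any of these samples, so the WT cells carry it as well. ARID1A, a DNA-binding subunit of the SWI/SNF chromatin remodeller, had been disrupted with CRISPR-Cas9 and a pair of guide RNAs, and clones were grown from the edited cells. Which clone was sequenced is not given in the sources used here, so the ARID1A-KO samples may come from 1 clone, the effects of the knockout and of cloning cannot be told apart, and the p-values measure the spread between samples that may be cultures of the same cells.

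The question was how transcripts of the family differ between the genotypes. Levels are given as TPM (transcript abundance with a fixed total per sample), which is divided by the annotated exonic length of each gene. Comparisons between genes rest on that length, which can differ from the length of the transcripts made. Differences are log2 fold changes of ARID1A-KO over WT, with a standard error (SE), from edgeR's quasi-likelihood test on counts of reads from the gene's own strand, and a gene is called where the p-value adjusted over all genes tested is under 0.05. Total counts ran from 54512105 to 84088708 per sample. ARID1A had 59.6, 62.8 and 62.2 TPM in WT replicates 3, 4 and 5 and 8.56, 9.74 and 9.22 TPM in the ARID1A-KO replicates (log2 fold change -2.74, SE 0.07, adjusted p = 9.66e-08), so the targeted gene went with the labels. Of the osteoblast lineage markers, RUNX2 was detected in all 6 samples, whereas SP7, COL1A2 and TWIST1 were under 0.1 TPM in each of them. The 10 markers of that list summed to 716 to 759 TPM in WT and 393 to 440 TPM in ARID1A-KO samples, and 4 of them (ALPL, COL1A1, SPARC and SPP1) were called, all lower. The epithelial list of 7 genes summed to 9.79 to 13.8 TPM in WT and 12.6 to 15.0 TPM in ARID1A-KO samples, with GRHL2 under 0.1 TPM throughout, EPCAM called higher and CDH1 and KRT14 called lower. The 4 haematopoietic markers summed to at most 1.04 TPM, with CD3E and LYZ among those under 0.1 TPM in every sample and PTPRC called lower, and the endothelial marker CDH5 was at most 0.272 TPM. The part of these markers in the results on the family was not tested. In bulk RNA, fewer cells with a transcript and less of it per cell cannot be told apart.

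ARID1A-KO replicates 3 and 4 lay close together, with a chi-square per gene of 7.01, and replicate 5 differed from them by 33.6 and 23.1. The WT samples differed from each other by 17.8 to 30.2. ARID1A-KO replicate 5 had the highest TPM of the 3 ARID1A-KO samples for 10 of the 10 members, which was so for 54.4% of all genes tested. By CPM, the counts scaled to library size with TMM factors, it was highest for 9 of the 10, against 41.4% of all genes tested. The fold changes of EREG, EGFR, ERBB4 and BTC and the make-up of the ligands are given below with and without it.

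Of the 10 members, 6 were called, 3 higher (EGFR, ERBB4 and EREG) and 3 lower (ERBB2, HBEGF and NRG1) in ARID1A-KO cells. Across all 19599 genes tested, 36.2% were called, 17.8% higher and 18.4% lower. The median log2 fold change was -0.01 over the members and 0.01 over all genes, and the median absolute log2 fold change was 0.34 over the members and 0.27 over all genes. The 3 members called with at least a 2-fold difference were all ligands (EREG, HBEGF and NRG1), where 10.8% of all genes met that mark. CPM did not overlap between the genotypes for 5 of the 10 members, close to the 49.5% of all genes tested. The same 5 (EGFR, ERBB4, HBEGF, EREG and NRG1) did not overlap in TPM, where 9572 of the 19599 genes tested did not. For each of the 5 an exact permutation test of 3 samples against 3 gave p = 0.1, the smallest it allows.

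**Figure D1:**
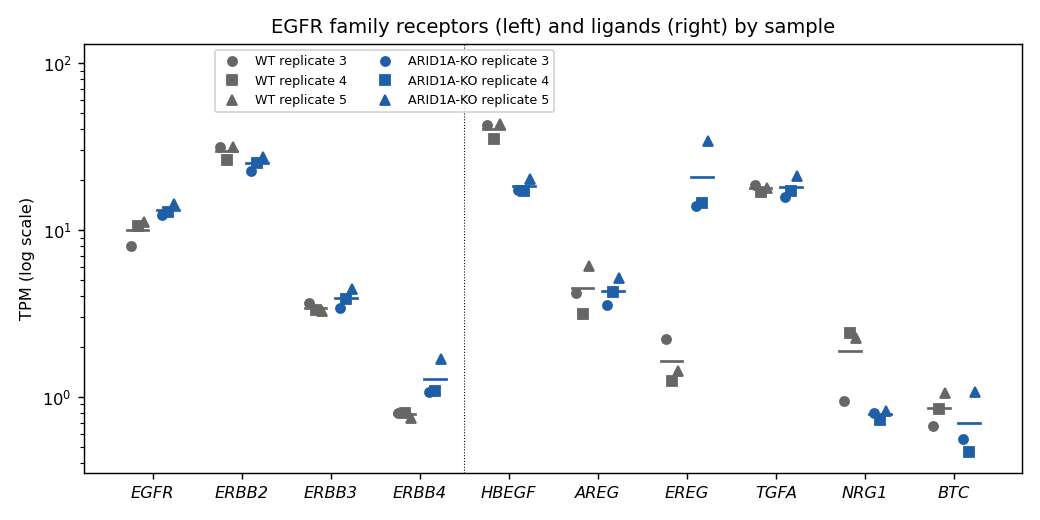
TPM (log scale) of the 4 receptors and 6 ligands in each sample. Points are samples, with a shape for each replicate number, and horizontal lines are means of 3 samples. EREG lies at 1.24 to 2.23 TPM in WT and 13.9 to 34.2 TPM in ARID1A-KO samples, and HBEGF at 35.0 to 43.2 TPM in WT and 17.2 to 20.1 TPM in ARID1A-KO samples.

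Among the ligands, EREG rose and HBEGF, the most abundant ligand of WT cells, fell, while AREG, the neighbour of EREG, was not called. The 250 bases before the start of these 3 genes are shown so that the promoters of a ligand that rose, one that fell and one that did not pass the test can be read side by side. They come from RefSeq on GRCh38.p14, whereas the tables use GRCh37. EREG is at chr4:74364895-74365144 on the plus strand, AREG at chr4:74444886-74445135 on the plus strand and HBEGF at chr5:140346604-140346853 on the minus strand. Each is written 5′ to 3′, ending 1 base before the start. Capitals mark matches on either strand to 3 motifs: the AP-1 motif TGANTCA, the cAMP response element TGACGTCA and the GC box GGGCGG, which reads CCGCCC on the other strand and may overlap itself.
EREG: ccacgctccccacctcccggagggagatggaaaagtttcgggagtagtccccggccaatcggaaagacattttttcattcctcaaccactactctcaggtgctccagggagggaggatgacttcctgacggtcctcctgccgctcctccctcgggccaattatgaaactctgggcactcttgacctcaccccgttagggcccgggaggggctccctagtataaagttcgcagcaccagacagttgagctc
AREG: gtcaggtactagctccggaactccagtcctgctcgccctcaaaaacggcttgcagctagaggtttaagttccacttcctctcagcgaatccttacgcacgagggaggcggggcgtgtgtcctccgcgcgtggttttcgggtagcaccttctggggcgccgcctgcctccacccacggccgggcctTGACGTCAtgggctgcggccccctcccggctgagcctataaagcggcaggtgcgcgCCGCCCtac
HBEGF: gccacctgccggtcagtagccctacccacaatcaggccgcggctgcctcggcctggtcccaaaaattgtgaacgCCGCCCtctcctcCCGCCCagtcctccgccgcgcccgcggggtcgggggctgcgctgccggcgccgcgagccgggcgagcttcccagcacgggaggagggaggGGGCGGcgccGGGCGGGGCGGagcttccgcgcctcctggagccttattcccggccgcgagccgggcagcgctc
EREG held none of the 3 motifs in this window. AREG held 1 cAMP response element, whose first base lies 65 bases before the start, and 1 GC box 9 bases before it. HBEGF held 5 matches to the GC box, at 176, 163, 73, 63 and 58 bases before the start, and neither of the other motifs. Of 35116 promoters in the same table, 6.57% held the AP-1 motif, 1.65% the cAMP response element and 42.6% the GC box. Among the 10 promoters of 8 members searched (EGFR and TGFA have a pair each), the AP-1 motif was in 2 (1 of EGFR and that of ERBB2), the cAMP response element in 1 and the GC box in 5. These matches are letters in a window and not sites of binding.

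EREG encodes epiregulin, a ligand with low affinity and long-lasting signalling at EGFR. The gene (ENSG00000124882.3, chr4:75230860-75254468 in GRCh37, plus strand) had 256, 154 and 145 counts in the WT replicates 3, 4 and 5 and 1717, 1388 and 5079 counts in the ARID1A-KO replicates. In TPM these were 2.23, 1.24 and 1.42 in WT and 13.9, 14.4 and 34.2 in ARID1A-KO samples. All 3 ARID1A-KO samples lay above all WT samples, and replicate 5 lay above the other ARID1A-KO samples in CPM as well, at 57.7 against 25.2 and 25.3. The fitted difference was 12.8-fold (log2 fold change 3.67, SE 0.36, 95% interval 2.85 to 4.49, adjusted p = 7.94e-05), and 72 of the genes tested had a larger log2 fold change. Without ARID1A-KO replicate 5 the log2 fold change was 3.16 (SE 0.20, adjusted p = 1.36e-05).

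Other ligand genes lie near EREG on chromosome 4. EPGN, for epigen, starts 56.7 kb before EREG, AREG 80.0 kb after it and BTC 439 kb after it, and none of the 3 was called. Among the 53 other genes tested within 5 Mb of EREG, 18 were called (34.0%, against 36.2% of all genes tested). Their median log2 fold change was -0.03, with single values from -5.45 to 5.31. The nearest called gene on one side was AFP at 934 kb (log2 fold change -4.24) and on the other PARM1 at 627 kb (0.35), both picked after their values were seen.

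**Figure D2:**
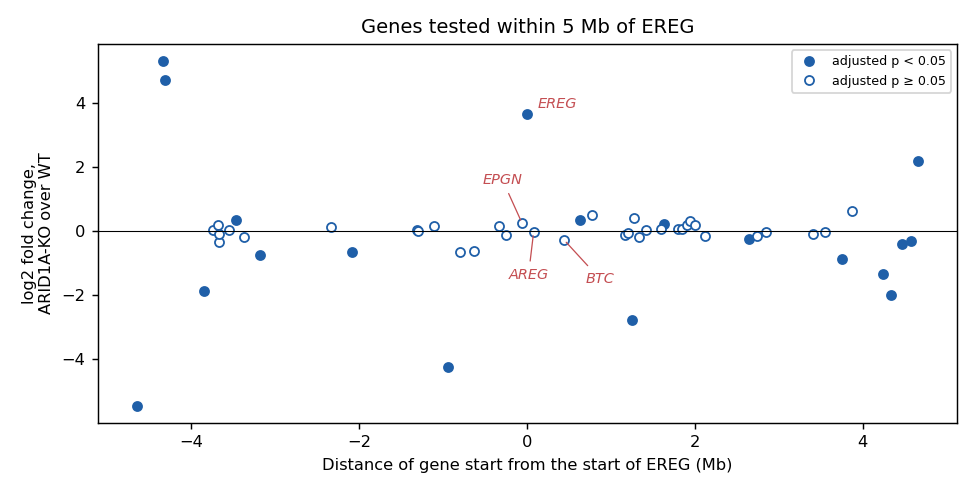
Log2 fold change (ARID1A-KO over WT) of genes tested within 5 Mb of EREG against the distance of their start from that of EREG in Mb. Filled points have an adjusted p under 0.05. EREG is at 3.67, EPGN at 0.24, AREG at -0.04 and BTC at -0.27.

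The genes whose pattern was most like that of EREG were found by Pearson's correlation of log2 CPM over the 6 samples, among 13208 genes with a mean log2 CPM over 1. They were RNFT1 (r = 0.999), GPR126 (r = 0.998) and PLAT, tissue plasminogen activator (r = 0.997), with log2 fold changes of 0.38, 1.46 and 1.03. Like EREG, these 3 had their highest CPM in ARID1A-KO replicate 5, which follows from how they were picked. Over these 6 samples, 35 genes reached an r of 0.99 and 532 an r of 0.95.

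HBEGF encodes heparin-binding EGF-like growth factor, which is also the receptor of diphtheria toxin. The gene (ENSG00000113070.6, chr5:139712428-139726216, minus strand) had 42.7, 35.0 and 43.2 TPM in WT and 17.4, 17.2 and 20.1 TPM in ARID1A-KO samples. Every ARID1A-KO sample lay below every WT sample, and the ARID1A-KO samples lay close together. The level was 2.20-fold lower in ARID1A-KO cells (log2 fold change -1.14, SE 0.10, 95% interval -1.35 to -0.92, adjusted p = 3.30e-05). The median log2 fold change of the 136 other genes tested within 5 Mb was 0.07.

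NRG1 encodes neuregulin 1, the main ligand of ERBB3, in many isoforms that gene counts do not separate. The gene (ENSG00000157168.14, chr8:31496902-32622548, plus strand) had 0.95, 2.42 and 2.25 TPM in WT and 0.80, 0.73 and 0.82 TPM in ARID1A-KO samples. The genotypes did not overlap, but WT replicate 3 lay much nearer to the ARID1A-KO samples than to the other WT samples. The gene was called lower (log2 fold change -1.25, SE 0.31, 95% interval -1.95 to -0.55, adjusted p = 0.0119). Without WT replicate 3 the log2 fold change was -1.58 (adjusted p = 0.000213), and without WT replicate 4 it was -1.01 (adjusted p = 0.0311).

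AREG, for amphiregulin, a ligand of EGFR with low affinity (ENSG00000109321.6, chr4:75310851-75320726, plus strand), had 4.20, 3.13 and 6.08 TPM in WT and 3.54, 4.26 and 5.18 TPM in ARID1A-KO samples. The ARID1A-KO values lay inside the range of the WT values. The log2 fold change was -0.04 (SE 0.24, adjusted p = 0.923), with a 95% interval from -0.58 to 0.51. The annotation of the tables also holds AREGB, a near-identical copy on the same chromosome, with 1 to 11 counts per sample, so reads that match both copies are uncertain.

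TGFA, for transforming growth factor alpha (ENSG00000163235.11, chr2:70674412-70781325, minus strand), had 18.6, 16.9 and 17.7 TPM in WT and 15.7, 17.2 and 21.0 TPM in ARID1A-KO samples. The genotypes overlapped, and the log2 fold change was 0.02 (SE 0.09, adjusted p = 0.867). Its 95% interval ran from -0.18 to 0.23, the narrowest among the ligands.

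BTC, for betacellulin (ENSG00000174808.7, chr4:75669969-75719896, minus strand), had the lowest mean of the 6 ligand members in both genotypes. It had 0.67, 0.85 and 1.05 TPM in WT and 0.56, 0.46 and 1.07 TPM in ARID1A-KO samples, and ARID1A-KO replicate 5 was the highest of all 6. The log2 fold change was -0.27 (SE 0.31, adjusted p = 0.546), with a 95% interval from -0.98 to 0.44. Without ARID1A-KO replicate 5 it was -0.69 (adjusted p = 0.0858).

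**Figure D3:**
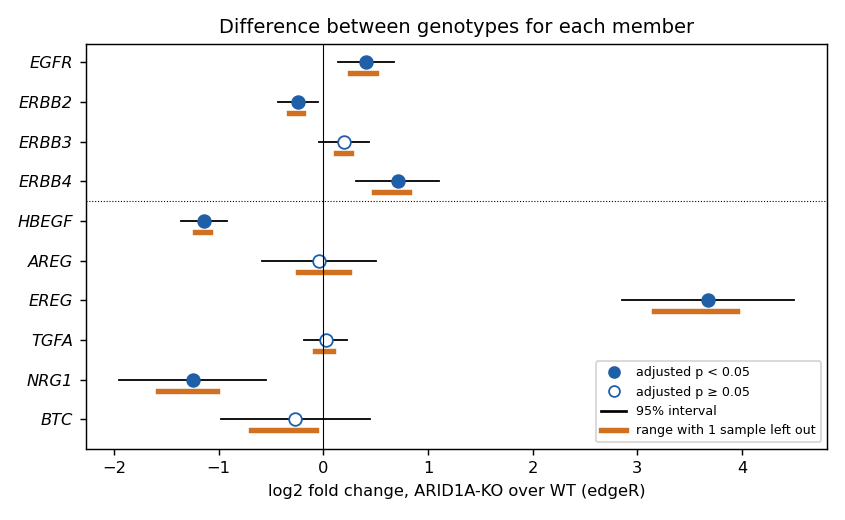
Log2 fold change of the 10 members (ARID1A-KO over WT, edgeR). Points are estimates, filled where the adjusted p is under 0.05, black lines are 95% intervals, and orange bars span the estimates with each of the 6 samples left out in turn. EREG is at 3.67, HBEGF at -1.14 and NRG1 at -1.25, while the intervals of AREG, TGFA, BTC and ERBB3 cross 0.

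The make-up of the transcripts of the 6 ligand members differed between the genotypes. The TPM of the 6 ligands summed to 66.8 ± 6.47 (SD, n = 3) in WT and 62.8 ± 16.9 (SD, n = 3) in ARID1A-KO samples. The ranges overlapped through ARID1A-KO replicate 5 alone, at 82.4 TPM, whereas replicates 3 and 4 (51.9 and 54.3 TPM) lay below all 3 WT samples (59.5 to 71.7 TPM). In WT samples HBEGF made up 60.2% ± 1.42 of the sum, TGFA 26.6% ± 1.85 and EREG 2.43% ± 0.69 (SD, n = 3). In ARID1A-KO samples EREG made up 31.6% ± 8.54, HBEGF 29.8% ± 4.82 and TGFA 29.2% ± 3.20 (SD, n = 3). Without ARID1A-KO replicate 5 these means were 26.7% for EREG, 32.6% for HBEGF and 31.0% for TGFA. AREG (6.60% and 6.99%), NRG1 (2.86% and 1.30%) and BTC (1.29% and 1.08%) made up the rest in WT and ARID1A-KO samples. The ratio of EREG to HBEGF in TPM was 0.052, 0.035 and 0.033 in WT and 0.80, 0.84 and 1.70 in ARID1A-KO samples. EREG was thus above HBEGF in ARID1A-KO replicate 5 and below it in the other 5 samples.

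**Figure D4:**
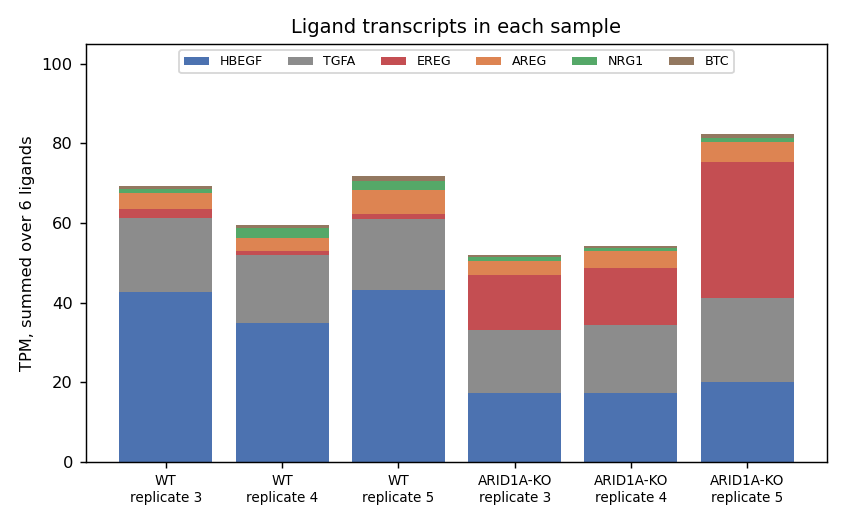
TPM of the 6 ligands stacked for each sample, so that the height of a bar is their sum. HBEGF makes up 58.8% to 61.6% of each WT bar, and EREG 26.6% to 41.5% of each ARID1A-KO bar.

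By level, the 6 ligand members in WT cells were ordered HBEGF, TGFA, AREG, NRG1, EREG and BTC. Neighbours in this order did not overlap over the 3 samples, except NRG1 and EREG. In ARID1A-KO cells the order by mean was EREG, HBEGF, TGFA, AREG, NRG1 and BTC. EREG came first through replicate 5. Without it the order by mean was HBEGF (17.3 TPM), TGFA (16.4 TPM) and EREG (14.2 TPM), followed by AREG, NRG1 and BTC. Over all 3 ARID1A-KO samples, the first 3 overlapped as neighbours, as did NRG1 and BTC. AREG stood apart from the members above and below it. The place and share of AREG carry the uncertainty about AREGB reads given above. The 5 other ligands described below are in neither this order nor the sums. By mean, NRG3 (3.19 TPM) and EGF (2.98 TPM) lay between AREG and NRG1 in WT cells. In ARID1A-KO cells NRG3 (5.99 TPM) lay above AREG, and NRG2 (1.62 TPM) and EGF (0.94 TPM) between AREG and NRG1.

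Among the receptors, ERBB2 had the most transcript in both genotypes, followed by EGFR, ERBB3 and ERBB4, and no neighbours in this order overlapped over the 3 samples of a genotype. Of the 4 receptors 2 were called higher and 1 lower, each by less than 2-fold. Over all genes tested, 17.8% were called higher and 18.4% lower. The summed TPM of the receptors was 43.9 ± 2.97 in WT and 43.3 ± 4.28 in ARID1A-KO samples (SD, n = 3). ERBB2 made up 67.7% ± 3.86 of the sum in WT and 57.8% ± 0.85 in ARID1A-KO samples, and EGFR 22.7% ± 4.02 and 30.3% ± 0.77 (SD, n = 3). The ratio of EGFR to ERBB2 in TPM ran from 0.25 to 0.41 in WT and from 0.51 to 0.54 in ARID1A-KO samples, without overlap.

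EGFR, the receptor of most ligands of the family (ENSG00000146648.11, chr7:55086714-55324313, plus strand), had 8.03, 10.6 and 11.2 TPM in WT and 12.2, 12.9 and 14.3 TPM in ARID1A-KO samples. The genotypes did not overlap, and the lowest sample was WT replicate 3. The level was 1.32-fold higher in ARID1A-KO cells (log2 fold change 0.40, SE 0.12, 95% interval 0.14 to 0.67, adjusted p = 0.0251). Without ARID1A-KO replicate 4 or 5 the call was lost (log2 fold changes 0.42 and 0.37, adjusted p = 0.0571 and 0.0627), and without WT replicate 3 the log2 fold change was 0.25 (adjusted p = 0.0350).

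ERBB2, known as HER2 (ENSG00000141736.9, chr17:37844167-37886679, plus strand), had 31.6, 26.1 and 31.6 TPM in WT and 22.5, 25.3 and 27.3 TPM in ARID1A-KO samples. The genotypes overlapped, because WT replicate 4 lay below ARID1A-KO replicate 5. The log2 fold change was -0.24 (SE 0.09, 95% interval -0.44 to -0.05) and the adjusted p of 0.0499 was just under the threshold. It rose above 0.05 when WT replicate 3 or 5 or ARID1A-KO replicate 3 or 4 was left out (log2 fold changes from -0.25 to -0.19, adjusted p from 0.114 to 0.167). PGAP3 and MIEN1 overlap ERBB2 on the opposite strand, and their reads are kept apart only by strand.

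ERBB4, a receptor of neuregulins and of several EGFR ligands (ENSG00000178568.9, chr2:212240446-213403565, minus strand), had 0.80, 0.80 and 0.74 TPM in WT and 1.07, 1.08 and 1.69 TPM in ARID1A-KO samples. It was the lowest receptor throughout, and the genotypes did not overlap. The level was 1.64-fold higher in ARID1A-KO cells (log2 fold change 0.71, SE 0.18, 95% interval 0.31 to 1.11, adjusted p = 0.0118). Without ARID1A-KO replicate 5 the log2 fold change was 0.49 (adjusted p = 0.0204).

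ERBB3 (ENSG00000065361.10, chr12:56473641-56497289, plus strand) had 3.65, 3.29 and 3.26 TPM in WT and 3.39, 3.83 and 4.44 TPM in ARID1A-KO samples. The genotypes overlapped, and the gene was not called (log2 fold change 0.20, SE 0.10, 95% interval -0.04 to 0.43, adjusted p = 0.172). NRG1, a ligand of ERBB3, was called lower, as given above.

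The median log2 fold change of genes within 5 Mb was between -0.13 and 0.07 for each of the 10 members, the lowest of these being for ERBB4, whose own value was 0.71.

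The rest of the pathway was described with 62 other genes in 6 roles, all of which were tested. Of these 28 were called, 10 higher and 18 lower, or 45.2% against 36.2% of all genes, with a median log2 fold change of -0.12. The share called was 60% for other ligands, 44.4% for shedding and trafficking and 40% for adaptors and direct effectors. It was 18.2% for the RAS-ERK core, 80% for inhibitors and 42.9% for partners. Each role held from 5 to 20 genes, so these shares rest on few. Among the 5 other ligands, 3 were called. EGF, the founding ligand of the family, had 3.57, 2.53 and 2.84 TPM in WT and 0.85, 0.80 and 1.18 TPM in ARID1A-KO samples, without overlap (log2 fold change -1.64, SE 0.18, adjusted p = 0.000159). The neuregulins NRG2 and NRG3, ligands of ERBB4, were higher, NRG2 at a mean of 0.634 TPM in WT and 1.62 TPM in ARID1A-KO cells (log2 fold change 1.36, adjusted p = 0.000625) and NRG3 at 3.19 and 5.99 TPM (log2 fold change 0.92, adjusted p = 0.000397). EPGN (log2 fold change 0.24, adjusted p = 0.672) and NRG4 (log2 fold change -0.97, adjusted p = 0.259) were not called. Of the 4 neuregulin genes, then, NRG1 was lower, NRG2 and NRG3 were higher and NRG4 did not pass the test.

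Among 9 genes of ligand shedding and trafficking, 2 were called higher and 2 lower. The metalloprotease ADAM12 was lower (log2 fold change -0.71), the inactive rhomboid RHBDF1 (0.38) and its binding partner FRMD8 (0.31) were higher, and TMED1 was the other called gene (-0.28). The genes within 5 Mb of TMED1 had a median log2 fold change of -0.28 as well, and the part of this in its result was not tested. ADAM17, the main protease for HBEGF, AREG, EREG and TGFA, had a log2 fold change of -0.08 (adjusted p = 0.426), and ADAM10, which cleaves EGF and BTC, one of -0.13 (adjusted p = 0.149). Neither was called.

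Among 20 adaptors and direct effectors, 8 were called, 2 higher and 6 lower. The largest differences were lower values of the transcription factor STAT3 (log2 fold change -0.85), the EGFR substrate EPS8 (-0.71) and the docking protein GAB1 (-0.64). The genes within 5 Mb of GAB1 had a median log2 fold change of -0.53, close to its own value, and the part of this in the result was not tested. In the RAS-ERK core, 2 of 11 genes were called, both lower, with the larger difference in the kinase MAP2K2 (-0.80).

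Among 10 genes listed as feedback or other inhibitors of the receptors, 8 were called, 3 higher and 5 lower. ERRFI1, which binds and blocks the EGFR kinase, was at 46.7, 54.2 and 46.9 TPM in WT and 113, 113 and 81.6 TPM in ARID1A-KO samples (log2 fold change 1.07, SE 0.14, adjusted p = 0.000389). LRIG3 (-0.66) and the phosphatase PTPRK (-0.39) were lower. Among 7 partners of the receptors or ligands, 3 were called. NRP1, a co-receptor of semaphorins and VEGF, was higher, at a mean of 25.4 TPM in WT and 58.2 TPM in ARID1A-KO cells (log2 fold change 1.20), and CD44 (-0.65) and ERBIN (-0.36), which binds ERBB2, were lower.

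**Figure D5:**
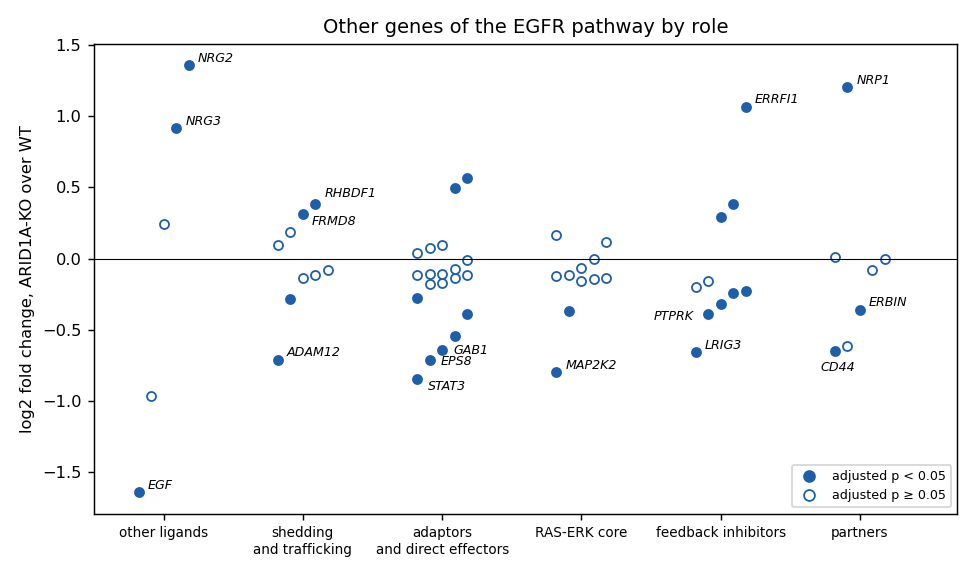
Log2 fold change (ARID1A-KO over WT, edgeR) of 62 other genes of the pathway, grouped by role. Points are genes, filled where the adjusted p is under 0.05, with up to 3 of the largest called differences of each role named. EGF at -1.64 is the lowest and NRG2 at 1.36 the highest.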

How the data were processed

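Read pairs were aligned by the authors with STAR (Roddy workflow, GRCh37), and featureCounts gave the deposited counts, whole numbers per gene that are not normalized. Each deposited table also holds TPM, summing to 1000000 in every sample, and a deposited score, TPM scaled over autosomal genes, that sums to more. The library kit named in the protocol is a stranded kit for total RNA, while the labels give polyA RNA, so how RNA was selected is uncertain, as is the release of the gene annotation behind the tables. TPM depends on both. Counts of the reverse strand were used, and forward-strand counts came to 5.83% to 6.15% of them.

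Counts were filtered with filterByExpr, scaled by TMM and compared with edgeR 4.0.16 (quasi-likelihood test, Benjamini-Hochberg adjustment over all genes tested, R 4.3.3), with no covariate. The common biological coefficient of variation was 0.111. TPM was compared with exact permutation tests (two-sided, SciPy 1.17.1). The fits were tested on simulated data. There edgeR recovered 28 of 64 genes changed by an absolute log2 fold of 0.5, 55 of 72 changed by 1 and 63 of 64 changed by 2. DESeq2 recovered 28, 51 and 61 of these. False calls numbered 7 with edgeR and 21 with DESeq2 among 19599 genes. Small differences can thus go uncalled. The members and lists were chosen with earlier results of these data known. Genes named by rule are the members, ARID1A, up to 3 called genes with the largest difference in each role, the 3 genes most like EREG and the ligand genes near it. Marker genes come from the fixed lists. ADAM17, ADAM10, NRG4 and TMED1 of the pathway list, the nearest called neighbours of EREG, and genes that overlap or copy a member were named in addition, after their values were seen. PECAM1 and the promoters of ERBB3 and NRG1 were not analysed here, and values of some listed genes are not reported here. Alternatives were unstranded counts, RLE scaling, library size alone, DESeq2 1.42.0, other filters, the replicate number as a block, the omission of each sample, an adjusted p under 0.01 and, for TPM, pseudocounts of 1 and 0.1, a TPM of at least 1, unstranded TPM, TMM-scaled reads per kilobase and, chosen after seeing the data, TPM scaled over autosomal genes and the ligand sums and order without ARID1A-KO replicate 5.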

Additional observations from a re-analysis of the deposited data

Results flagged for a closer look

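A signal for EREG appeared in the forward-strand counts, which the comparisons above do not use. EREG had 9, 1 and 7 forward-strand counts in WT replicates 3, 4 and 5 and 53, 40 and 99 in the ARID1A-KO replicates, 192 in all. This came to 0.649% to 4.83% of the reverse-strand counts of EREG in WT and 1.95% to 3.09% in ARID1A-KO samples. The other members that rose, EGFR and ERBB4, had at most 8 forward-strand counts in a sample. Shares like those of EREG also occurred at low counts. In ARID1A-KO samples AREG had 0.847% to 2.38% (at most 4 counts) and NRG1 0% to 1.83% (at most 3 counts). ERBB2, which genes on the opposite strand overlap, had 896 to 1607 forward-strand counts in a sample. The source of the forward-strand counts was not tested.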

How the results depend on the processing

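EREG, HBEGF, NRG1 and ERBB4 kept their direction and their call at an adjusted p under 0.05 under every alternative run in edgeR or DESeq2, with log2 fold changes from 3.16 to 3.95, -1.23 to -1.08, -1.58 to -1.01 and 0.49 to 0.82. At an adjusted p under 0.01, 2 of the 10 members (EREG and HBEGF) and 4414 of the 19599 genes tested were called. With each sample left out, 4 to 6 members, 25 to 30 of the 62 pathway genes and 5285 to 7050 genes were called. These fits tested 19991 to 20183 genes. ERBB2 lost its call with at least 10 counts in every sample (log2 fold change -0.25, adjusted p = 0.0505), with counts without regard to strand (-0.24, adjusted p = 0.0507) and with library size alone (-0.19, adjusted p = 0.130), and ran from -0.33 to -0.19 with each sample left out, 4 of the 6 times without the call. EGFR ran from 0.25 to 0.50. AREG and TGFA, which were not called, changed sign with a sample left out, AREG from -0.24 to 0.25 and TGFA from -0.076 to 0.090 (log2 TPM ratios -0.25 to 0.24 and -0.11 to 0.11), and AREG was at 0.016 with library size alone. With 1 added to the TPM, the log2 TPM ratios of EREG (3.05), NRG1 (-0.69) and ERBB4 (0.35) moved toward 0 by more than the spread between replicates. Library size alone also moved the share of calls that were higher from 49.1% to 57.5% and the median of all genes to 0.06. Same-numbered samples of the genotypes deviated from their group means with correlations of -0.18, 0.27 and 0.18, and not every sample correlated best with its own number. With 3 samples per genotype, these correlations cannot decide whether the numbers pair the samples. With the replicate number as a block, 7477 genes (7099 without it), 6 members and 27 pathway genes were called. The SE of EGFR went from 0.12 to 0.09 (adjusted p = 0.00554 with the block) and that of ERBB3 from 0.10 to 0.11. BTC had 22 to 78 counts in a sample and AREG 112 to 222, so counting error adds to the spread of these values.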
